A study of Mus musculus with 10 samples.

Results

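The comparison set the open chromatin of ground-state embryonic stem cells (ESC) against that of primed epiblast stem cells (EpiSC), both from the mouse, on the autosomes. Its members are the sites of 2 deposited lists of FAIRE-seq enrichment, taken by their cell type labels: 438802 ESC sites and 387312 EpiSC sites, or 826114 of the 1816946 sites in the 4 lists of the series. FAIRE-seq extracts crosslinked, sheared chromatin with phenol and chloroform and sequences the nucleosome-poor DNA that stays in the aqueous phase. The labels name 2 samples for each cell type, and 1 list per cell type, filed with replicate 2, was analysed here. No difference between the cell types therefore has a replicate check, and no test between them is given.

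The ESC were E14 cells (ES-E14Tg2a), an established line, kept on gelatin without serum in N2/B27 medium with the MEK inhibitor PD032590, the GSK3 inhibitor CH99021 and LIF. The EpiSC were E3 cells, expanded in FGF2 and conditioned medium on mitomycin C-treated fibroblast feeders, then lifted off with Dispase and grown on fibronectin without feeders before crosslinking. The cell types thus differed in line, medium and substrate as well as in state, and these cannot be told apart. No transgene, deletion or sorting is stated for either. Neither label could be checked against the loci of marker genes, because no gene annotation of the lists' build, mm9, was used here. Sites are accordingly given by position, and no gene is named from a position.

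Ground-state cells stand for the epiblast before implantation and primed cells for the epiblast after it. As background, both states depend on the transcription factors Oct4 and Sox2. Blocking MEK and GSK3 together with LIF holds a circuit of further factors, among them Klf4 and Esrrb, whereas primed cells depend on FGF and Activin signalling and express early lineage genes. The states are known for using different enhancers, at times of the same gene.

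Of the autosomal ESC sites, 261819 (59.7%, exact 95% interval 59.5 to 59.8) had no overlap of 1 bp or more with an EpiSC site. Of the EpiSC sites, 213158 (55.0%, interval 54.9 to 55.2) had none with an ESC site. Most sites of either list thus had no overlap with the other list. This did not hold when a gap of up to 500 bp counted as shared, which left 45.4% of ESC and 43.1% of EpiSC sites unshared. The intervals hold counting error alone and treat neighbouring sites as if independent. In bulk chromatin, a site open in fewer cells and a site less open in each cell cannot be told apart. ESC sites covered 226 Mb, 9.14% of the 2472 Mb up to the last site of each autosome, and EpiSC sites covered 173 Mb, 7.02% of it. The lists had 76.6 Mb in common, which made up 33.9% of the ESC bases and 44.1% of the EpiSC bases. Sites of a single list held a smaller part of the bases than of the sites, 48.9% in ESC and 39.8% in EpiSC. Read depth is unknown for both lists, so that a list can be longer, or miss a site of the other, because of its depth or its threshold.

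Where the lists met, they mostly met site by site. Of the 176983 shared ESC sites, 93.2% overlapped exactly 1 EpiSC site, 11046 overlapped 2 and 967 overlapped 3 or more. Of the 174154 shared EpiSC sites, 91.8% overlapped exactly 1 ESC site. This left 138428 pairs in which each site had only the other as partner. In these pairs the median overlap was 281 bp (quartiles 185 and 447), and the midpoints lay a median of 92.5 bp apart (quartiles 39 and 186.5). In 49.2% of pairs the shorter site lay wholly within the longer, and in 59.8% the overlap took at least 50% of both sites. Paired sites were of similar width, with medians of 436 bp in ESC and 418 bp in EpiSC, and the ESC site was the wider in 51.8%. Widths within pairs went together only loosely, with a Spearman correlation of 0.40 across pairs. Pairs share libraries and are not replicates, so this is a description.

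The authors gave each site a score, whose unit and making are not stated, so it was used to rank sites within its own list. Sharing followed this rank differently from the side of ESC and of EpiSC. In ESC it climbed from 20.3% (19.9 to 20.7) of the lowest score decile to 41.6% of decile 7 and 77.2% (76.9 to 77.6) of the highest. In EpiSC it fell from 55.4% (54.9 to 55.9) of the lowest decile to 33.1% (32.6 to 33.5) of decile 5, and rose again to 56.8% (56.3 to 57.3) of the highest. The weakest EpiSC sites were therefore shared nearly as often as the strongest, and the weakest ESC sites least of all. Of the strongest sites, 9985 of ESC (22.8% of the highest decile) had no EpiSC overlap, against 16741 of EpiSC (43.2%) with no ESC overlap.

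**Figure D1:**
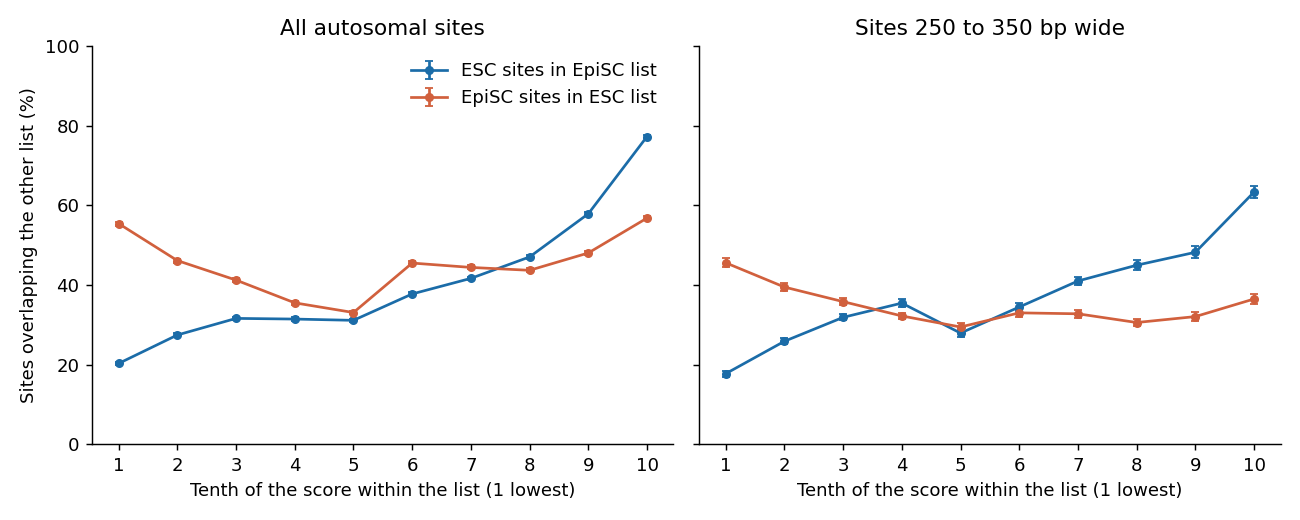
Share of sites overlapping the other list (y axis, %) by decile of the authors' score within each list (x axis, 1 lowest), for all autosomal sites on the left and for sites 250 to 350 bp wide on the right. Points are ESC (blue) and EpiSC (orange) sites and bars are exact 95% intervals; in the left panel ESC climb from 20.3% to 77.2% while EpiSC dip from 55.4% to 33.1% and return to 56.8%.

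Width moved with the score, so the deciles were also read at a fixed width of 250 to 350 bp, a choice made after the data were seen. The ESC share then still climbed, from 17.7% to 63.3%, with a dip to 27.9% in decile 5. The EpiSC share fell from 45.6% to 29.4% in decile 5 and then stayed between 30.6% and 36.5%. At a fixed width the strongest EpiSC sites were thus shared less often than the weakest, and less often than the strongest ESC sites. The scores of both lists had a first peak, a dip and a second peak, which in EpiSC was slight. In bins of 0.25 the first peak was at 1.5 to 1.75 in both, with 47300 ESC and 48693 EpiSC sites. Between the peaks the lowest bin was 2.5 to 2.75, with 14047 ESC and 17659 EpiSC sites. The second peak was at 3.25 to 3.5 in ESC, with 20736 sites, and at 3 to 3.25 in EpiSC, with 18170. Each list was then split at the middle of its own low bin. In ESC 36.0% of sites lay below it, of which 27.5% were shared, against 47.5% of those above. In EpiSC 45.1% lay below, of which 43.0% were shared, against 46.6% of those above. As the scores have no stated common scale, the upper and lower sites of one list are not matched to those of the other. EpiSC sites above the split hardly differed in width from those below it, with medians of 343 and 334 bp, whereas in ESC these were 442 and 309 bp. The part of the score's making in these shapes was not tested.

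Within pairs, an ESC site of the highest decile tended to be strong in EpiSC. The Spearman correlation of scores over the 138428 pairs was 0.33, and between 0.24 and 0.38 on single autosomes. Of the pairs whose ESC site lay in the highest ESC decile, 30.3% had an EpiSC site of the highest EpiSC decile, against 11.3% of all pairs. With an ESC site of decile 9 this was 11.7%, near that of all pairs. In that decile 12.8% had an EpiSC site of the lowest decile, against 12.4% of all pairs. Read the other way, 46.2% of the pairs with an EpiSC site of the highest decile had an ESC site of the highest decile, against 17.2% of all pairs. With an EpiSC site of decile 9 this was 30.2%. An ESC site of the lowest decile was the partner of 0.884% of the EpiSC sites of the highest decile, against 5.07% of all pairs. At the other end, 32.5% of the pairs with an ESC site of the lowest decile had an EpiSC site of the lowest decile, against 12.4% of all pairs.

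Wide sites were shared more often than narrow ones, above all in EpiSC. Sites under 150 bp were shared alike, 24.8% (24.3 to 25.3) in ESC and 24.0% (23.5 to 24.5) in EpiSC. From 500 to under 750 bp the shares were 45.7% and 61.9%, and from 1000 to under 2000 bp 66.7% and 92.3%. Of sites of 2 kb or more, 82.0% (81.1 to 82.8) of 7785 in ESC and 98.9% (98.5 to 99.2) of 4593 in EpiSC overlapped the other list. By construction a wider site offers more bases to an overlap. These wide sites were often broken up on the other side: 54.0% of the EpiSC ones and 33.6% of the ESC ones overlapped 2 or more sites of the other list.

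Wide sites without overlap in the other list were thus mostly ESC sites, 1403 of 7785 against 51 of 4593 in EpiSC. Within 1 kb of a site of the other list lay 45.6% of these ESC sites and 47.1% of these EpiSC sites. The ESC ones had a median score of 6.81, against 8.80 for shared ESC sites as wide, and lay a median of 1168 bp from the nearest EpiSC site. Chromosome 8 held 257 of them, and chromosomes 7, 8, 12 and 18 together held 35.4%, against 20.7% of all ESC sites. These chromosomes had the fewest EpiSC sites per ESC site, so fewer overlaps there come partly by construction. Of their ESC sites of any width, 33.4%, 36.1%, 30.9% and 28.1% were shared, against 40.3% on all autosomes. The widest, named after its value was seen, was chromosome 8, 119716109 to 119723182 (7074 bp, score 7.77), with the nearest EpiSC site 3449 bp away. The widest of EpiSC was chromosome 4, 103370423 to 103373724 (3302 bp, score 8.26), 1022 bp from an ESC site.

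**Figure D2:**
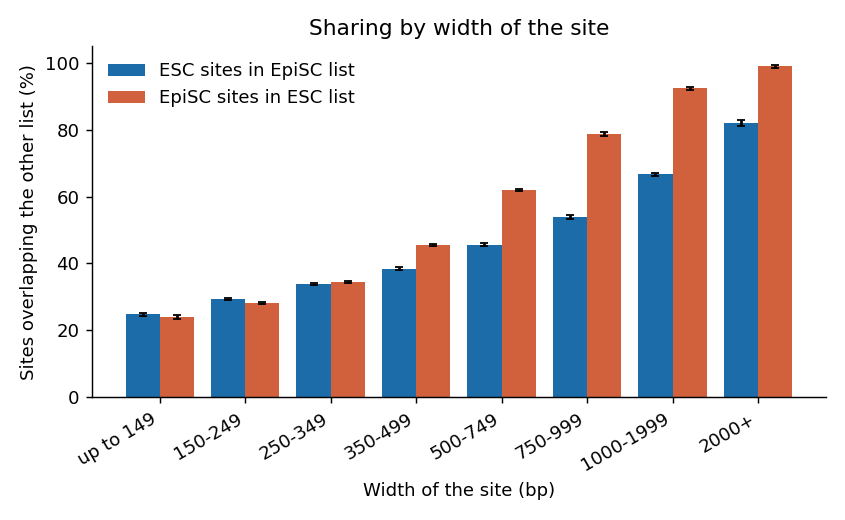
Share of sites overlapping the other list (y axis, %, from 0) by width of the site in bp (x axis), for ESC (blue) and EpiSC (orange) sites of the autosomes; bars carry exact 95% intervals. The lists are alike below 350 bp, and from 500 bp up EpiSC bars stand above ESC bars, reaching 98.9% and 82.0% at 2 kb or more.

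Crowding among sites of the same list was related to sharing as well. An EpiSC site with no other EpiSC site within 10 kb of its midpoint was shared in 16.8% of cases (16.3 to 17.4), and this grew to 32.7% with 2 neighbours, 51.6% with 5 to 7 and 60.6% (59.9 to 61.3) with 11 to 15. In ESC the same steps were flatter, at 26.8% with no neighbour, 35.4% with 2, 40.9% with 5 to 7 and 43.8% with 11 to 15. Median width rose over the same steps, from 268 bp with no neighbour to 403 bp with 11 to 15 in EpiSC. In ESC it rose from 254 to 448 bp. Window counts of the lists also went together, as given below. The parts of width and of the other list's density in these shares were not tested. Lone sites made up 18511 of the EpiSC and 16890 of the ESC list. Lone EpiSC sites were thus the class least often found in the other list among those grouped by neighbours.

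Sites of a single list seldom stood far from the other list when they were ESC sites, and more often when they were EpiSC sites. Within 1 kb of the other list, overlaps included, lay 64.9% of the sites of each. Within 10 kb lay 97.4% of ESC sites but 91.2% of EpiSC sites, leaving 11497 ESC sites (2.62%) and 33927 EpiSC sites (8.76%) beyond. Beyond 50 kb were 1520 ESC and 5570 EpiSC sites. Among the sites without overlap, 25% lay farther than 3019 bp in ESC and 5518 bp in EpiSC, and 10% farther than 5973 and 17094 bp. Within 1 kb of a shared site of their own list lay 26.9% of the ESC and 18.1% of the EpiSC sites without overlap. The median distances to such a site were 2625 and 4838 bp.

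**Figure D3:**
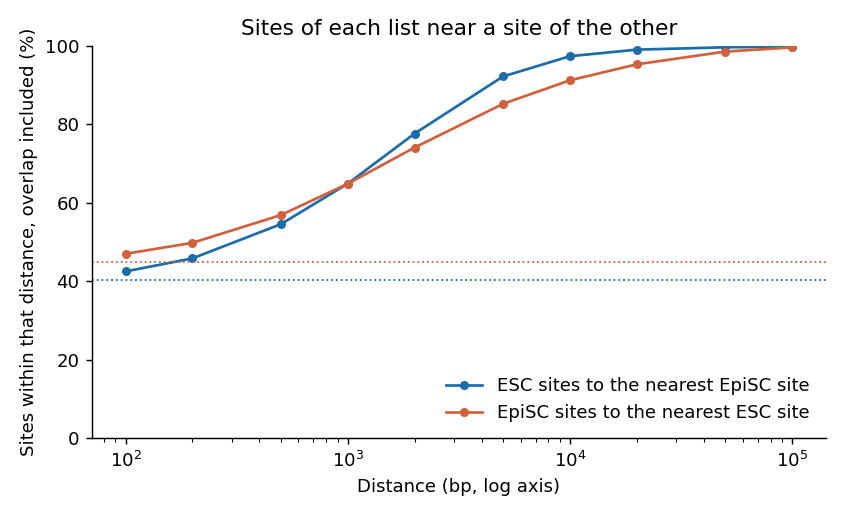
Share of sites (y axis, %) lying within a given distance of the nearest site of the other list (x axis, bp, log scale), overlaps included, for ESC sites (blue) and EpiSC sites (orange). Dotted lines mark the overlap alone, 40.3% and 45.0%; the curves cross at 1 kb, at 64.9%, and at 10 kb ESC reach 97.4% and EpiSC 91.2%.

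Score and remoteness went different ways in the lists. In ESC the share of sites with no EpiSC site within 10 kb was at most 4.25%, in decile 4, and was lowest, 1.14% (1.04 to 1.24), among the strongest sites. In EpiSC it was lowest among the weakest, 3.42% (3.24 to 3.60), highest in decile 5 at 12.1%, and 9.0% (8.71 to 9.29) among the strongest. Strong sites with nothing of the other list within 10 kb numbered 499 in ESC and 3485 in EpiSC. They are the remote, high-scoring sites of each list.

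The lists were then set side by side in 100-kb windows. Numbers of ESC and EpiSC sites went together over the 24731 autosomal windows, with a Spearman correlation of 0.86, and of 0.83 without the 1356 windows that had no site of either. On single autosomes the correlation ran from 0.81 on chromosome 18 to 0.89 on chromosome 7. Windows are neighbours in the same libraries and are no replicates. The relation was bent. Windows with 11 to 20 ESC sites held a median of 17 EpiSC sites, which became 27 where ESC had 31 to 50 and 34 where ESC had over 50. Windows with 11 to 20 EpiSC sites held a median of 15 ESC sites, which became 42 where EpiSC had 31 to 50 and 53 where EpiSC had over 50. ESC sites were thus more concentrated in rich windows, and EpiSC sites more evenly spread.

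Windows poor in ESC sites held a larger part of the EpiSC list than the reverse. Windows with at most 5 ESC sites numbered 9679 of 24731 and held 47187 EpiSC sites, 12.2% of that list, and 17188 ESC sites. Windows with at most 5 EpiSC sites numbered 6817 and held 13146 ESC sites, 3.00% of that list, and 14346 EpiSC sites. The first set has more windows, so the shares are of unlike sets. With lists of equal length these shares were 13.1% and 3.13%.

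A window was called richer in a cell type where its count plus 1, over the list's autosomal total, stood 3-fold or more above that of the other list. Windows with 10 or more sites of both lists together, 17481 in all, could be called. EpiSC were richer in 1634 of them, 9.35%, and ESC in 189, 1.08%. The median scaled ratio of ESC over EpiSC was 0.95. The number for ESC depended on the threshold of the lists, the window size and the chromosomes used: with the higher-scoring 50% of each list it was 624, against 1095 for EpiSC, and with windows of 50 kb it was 538 against 1465. It was lower, 80 against 1254, with windows of 200 kb, and 101 against 1330 without chromosomes 7, 8, 12 and 18. EpiSC-richer windows were poor in ESC sites rather than crowded with EpiSC sites, with medians of 3 ESC and 14 EpiSC sites, against 25 and 21 in windows called for neither. ESC-richer windows were dense in ESC sites, with medians of 31 and 6. The EpiSC sites in EpiSC-richer windows had a median width of 290 bp and a median score of 3.14, against 349 bp and 2.86 in windows called for neither. The ESC sites in ESC-richer windows had 370 bp and 3.58, against 380 bp and 3.47.

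**Figure D4:**
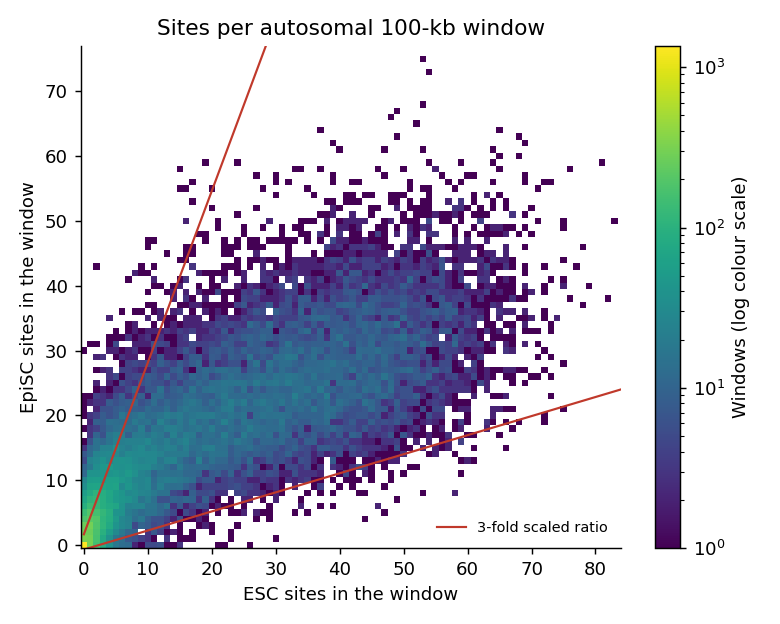
Number of ESC sites (x axis) and EpiSC sites (y axis) in each autosomal window of 100 kb; colour gives the number of windows on a log scale, and red lines the 3-fold scaled ratio in each direction. The cloud bends over, with more windows above the upper line (1634 of those that could be called) than below the lower one (189).

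Most runs of called windows were a single window, and the other called windows adjoined each other. The 1634 EpiSC-richer windows formed 1089 runs, of which 783 were single windows, 118 had 3 windows or more and 32 had 5 or more. The 189 ESC-richer windows formed 162 runs, of which 141 were single windows and 4 had 3 or 4. The longer runs of EpiSC come with a greater number of windows, and the part of that number was not tested. The longest EpiSC run covered 14 windows on chromosome 11, from 111000001 to 112400000, with 328 EpiSC and 52 ESC sites. The next covered 10 windows of the same chromosome, from 65700001 to 66700000, with 223 and 33. The longest ESC runs had 4 windows each, on chromosome 7 from 49700001 to 50100000 with 54 ESC and 2 EpiSC sites, and on chromosome 8 from 19700001 to 20100000 with 64 and 9. The runs were chosen for their difference, so these counts are descriptions.

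By scaled ratio, the first 5 windows of each kind had no site of the other list. For ESC they were the windows starting at 143900001 on chromosome 4, with 26 ESC sites, and at 60900001 on chromosome 6, with 21. A pair of adjoining windows on chromosome 13, starting at 62200001 and 62300001, had 15 and 22, and that starting at 52200001 on chromosome 8 had 15. For EpiSC, 4 of the 5 lay in 1 Mb of chromosome 19. These were the windows starting at 49700001 with 23 EpiSC sites, at 50300001 with 22, at 50400001 with 21 and at 50600001 with 20, and the first was chromosome 15, 90100001 to 90200000, with 30. The window with the most unshared strong sites, named after its value was seen, was chromosome 15, 90800001 to 90900000, in EpiSC. There 13 EpiSC sites of the highest decile had no ESC overlap, among 53 EpiSC and 17 ESC sites. In ESC it was chromosome 11, 33400001 to 33500000, with 10 such sites among 64 ESC and 21 EpiSC sites.

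Finer than windows, uninterrupted strings of sites of a single list were read off in order of position. Most were short: 55.6% of the 134922 ESC strings and 61.3% of the 113968 EpiSC strings were a lone site. Strings of 10 or more numbered 687 in ESC, with 3.34% of its unshared sites, and 1039 in EpiSC, with 6.54%. The ESC ones had a median length of 20.5 kb, against 83.0 kb in EpiSC. This did not hold for the 3 strings with the most sites, which spanned 1437, 629 and 283 kb in ESC. Those of EpiSC spanned 559, 289 and 208 kb. The ESC string with the most sites had 68 on chromosome 8, from 52391190 to 53828561, covering 1.33% of that stretch at a median score of 2.62. It was followed by 54 sites on chromosome 7, from 49765304 to 50394566, at a median score of 4.49, and 45 on chromosome 13, from 62123515 to 62406562, at 3.75. In EpiSC the strings with the most sites had 64 on chromosome 19, from 49385918 to 49945257, at a median score of 3.50, and 58 on the same chromosome from 50260511 to 50549806, at 4.2. The next had 40 sites on chromosome 16, from 57955654 to 58163472, also at 4.2. The strings of chromosome 19 overlap 3 of the 4 EpiSC windows named there, and the window starting at 50600001 lies outside both.

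Chromosomes differed in how much of the ESC list was shared. The share of ESC sites in EpiSC was highest on chromosomes 11 (51.4%, 50.9 to 52.0) and 19 (48.3%) and lowest on chromosomes 18 (28.1%, 27.4 to 28.9) and 12 (30.9%). From the side of EpiSC, chromosomes 8 (57.6%, 57.0 to 58.3) and 7 (52.1%) were highest and chromosomes 3 (37.3%, 36.7 to 38.0) and 1 (39.4%) lowest. The number of EpiSC sites per ESC site ran from 0.64 on chromosome 8, 0.65 on chromosome 7, 0.70 on chromosome 18 and 0.71 on chromosome 12 to 1.06 on chromosome 3. Across the 19 autosomes this ratio and the ESC share had a Spearman correlation of 0.74, and of 0.52 over the 15 without chromosomes 7, 8, 12 and 18. With the EpiSC share the ratio had a correlation of -0.25. By construction, more EpiSC sites per ESC site offer more overlaps to the ESC sites. The autosomes also share their libraries, and this is a description.

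With the longer list of each chromosome cut to its highest-scoring sites, so that both were equal in number, a choice made after the data were seen, the spread narrowed but stayed. ESC shares then ran from 33.1% on chromosome 18 and 35.6% on chromosome 12 to 50.7% on chromosome 11. Chromosomes 7 and 8 moved from 33.4% and 36.1% to 40.5% and 43.1%. There the cut took low-scoring ESC sites, which were shared less often than high-scoring ones in the whole list. On chromosomes with the longer EpiSC list it took EpiSC sites instead. The median EpiSC score was lowest on chromosome 12, at 2.31, and highest on chromosome 11, at 3.26. It was 2.67 on chromosome 18, 2.67 on chromosome 7 and 2.62 on chromosome 6, with ESC shares at equal length of 33.1%, 40.5% and 38.8%. Across the 19 autosomes the median EpiSC score and the number of EpiSC sites per ESC site had a Spearman correlation of 0.76. Over all 19 autosomes the median ESC score stayed between 3.36 and 3.59. In pairs, too, the correlation of scores was lowest on chromosomes 12 (0.24) and 18 (0.25). The part of these scores in the lower sharing was not tested.

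**Figure D5:**
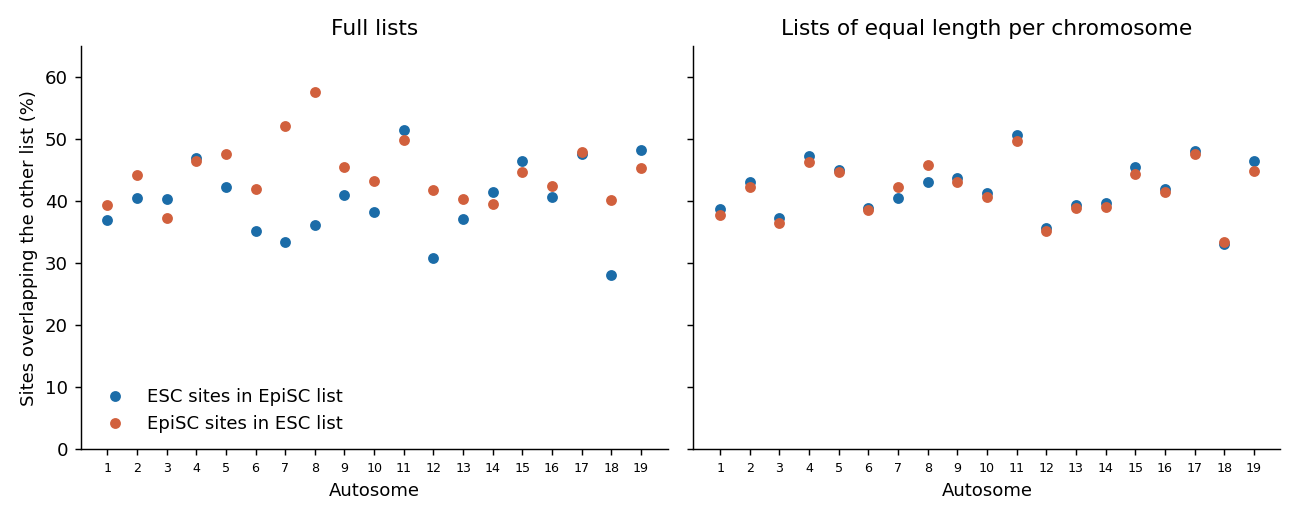
Share of sites overlapping the other list (y axis, %) on each autosome (x axis) for ESC (blue) and EpiSC (orange) sites, in the full lists on the left and with both lists cut to equal length on each chromosome on the right. Chromosomes 7, 8, 12 and 18 have widely parted points on the left; on the right the lists lie closer, the widest of these gaps being 43.1% for ESC against 45.8% for EpiSC on chromosome 8, and chromosomes 18 and 12 remain lowest, at 33.1% and 35.6% for ESC.

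The windows and strings of ESC were concentrated on the same chromosomes. Chromosomes 7, 8, 12 and 18 held 109 of the 189 ESC-richer windows, 57.7%, against 18.6% of the windows that could be called. They held 328 of the 687 ESC strings of 10 or more sites, 47.7%, against 20.7% of all ESC sites. A string ends at any site of the other list, and EpiSC sites per ESC site were fewest on these chromosomes. Longer ESC strings there thus come partly by construction, and strings were not scaled within chromosomes. The same holds for the number of ESC-richer windows there, which were called with scaling over all autosomes. Elsewhere there were 80 ESC-richer and 1496 EpiSC-richer windows. With the scaling done within each chromosome the numbers over all autosomes were 142 for ESC and 1548 for EpiSC, not split by chromosome here. Chromosome 19 had no ESC-richer window and no ESC string of 10 or more sites, against 64 EpiSC-richer windows and 57 EpiSC strings. The greatest share of EpiSC-richer windows was on chromosome 15, 15.5%, and the smallest on chromosome 8, 1.75%.

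Single sites of highest score, 200 bp or wider, close the comparison. The 5 highest EpiSC sites without ESC overlap lay together on chromosome 8, between 125950195 and 125957498, and hold ranks 1 to 4 and 6 of the autosomal list by score. Their scores ran from 54.5 to 144, and the nearest ESC sites were 1630 to 4662 bp away. In ESC the highest without EpiSC overlap were scattered. They lay on chromosome 10, 70303975 to 70304367 (score 31.2, nearest EpiSC site 8351 bp away), on chromosome 8, 107104446 to 107104813 (28.1, 1258 bp), on chromosome 2, 12345117 to 12345564 (26.1, 555 bp), on chromosome 3, 154294349 to 154294564 (26.0, 4322 bp), and on chromosome 5, 145439704 to 145439914 (25.4, 8674 bp).

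Of the shared sites, the highest of EpiSC was unlike its partner in rank. It lay on chromosome 17, 35647699 to 35648029, with an EpiSC score of 58.4, the fifth of that list, whereas the ESC site there, 35647738 to 35647979, had a score of 3.64, above 53.3% of ESC sites. The second highest, on the same chromosome at 35637179 to 35640188 (3010 bp, score 37.8), met 3 ESC sites, the strongest of them at a score of 13.6, above 98.9% of its list. The next 3 were matched by strong ESC sites: chromosome 17, 53684685 to 53685020 (34.4), chromosome 4, 117965584 to 117965843 (32.6), and chromosome 11, 102681534 to 102682297 (31.1). The ESC scores there were 18.7, 17.0 and 29.5, the lowest of them above 99.8% of the ESC list.

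The 5 highest shared ESC sites all met a single EpiSC site of high rank. The first, chromosome 15, 31348872 to 31349102 (score 39.0), lay within an EpiSC site from 31347787 to 31349260 with a score of 16.3. The second, chromosome 13, 92047840 to 92048133 (35.9), met an EpiSC score of 9.5, above 97.2% of that list. The others were chromosome 1, 180379405 to 180379672 (34.5), and chromosome 9, 54958260 to 54958645 (31.0) and 3403355 to 3404202 (30.9), with EpiSC scores of 16.4, 14.2 and 13.8, above 99.6% to 99.8% of the list. Scores of the lists have no stated common scale, so only ranks within each list are set side by side. Single sites have no replicate check.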

How the data were processed

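The labels give 10 samples in 5 groups of 2. The 2 lists used hold the position of each site and a score deposited by the authors, and no sites of a list overlapped each other. CASAVA 1.8 and the mouse build mm9 are named in the submitters' processing notes, and the enrichment caller qeseq in the titles of the files alone. Aligner, threshold, use of the genomic control, pooling of replicates and making of the score: not given in the sources used here.

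Coordinates are printed 1-based. Distances run between nearest edges, and windows count sites by midpoint. Shares carry exact (Clopper-Pearson) 95% intervals. No test was possible between single lists. A string is a series of sites of a single list with no site of the other overlapping or between them. Named are, per class, the 5 sites of highest score among those 200 bp or wider, the 5 windows with the greatest ratio, the 3 strings with the most sites and the extreme chromosomes. The comparison and rules were chosen with earlier results of these data known. Annotation with genes, base composition and sequences are left out, because no annotation or genome of mm9 was used here. Scripts ran in Python 3.11.15 (pandas 2.3.3, numpy 2.4.6, matplotlib 3.10.9, scipy 1.17.1) and were tested on simulated lists; overlaps gave the same counts as bedtools 2.31.1. Alternatives varied overlap, threshold, list length, merging, chromosomes, width and window size.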

Additional observations from a re-analysis of the deposited data

Results flagged for a closer look

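The X and Y chromosomes lie outside the comparison, which used autosomes. The ESC list held 2992 sites on the X chromosome and 61 on the Y chromosome, whereas the EpiSC list held 0 on either. These counts stand out because the second list has none at all. The reason was not tested.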

How the results depend on the processing

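No paired analysis was possible because a single list stood on each side, and for that reason no replicate was left out. Annotation with promoters was not run. Unknown depth limits every share and count. Of 37 values under alternatives, 28 moved and 9 stayed within the interval, or within 1.5 times for counts; correlations were all counted as moved. Except where fewer sites or windows or a wider match change a value by construction, the cause was not tested. The equal lengths per chromosome, the shares at a fixed width, the windows without 4 chromosomes and the windows with a site of either list were chosen after seeing the data.

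The ESC share without EpiSC overlap and the EpiSC share without ESC overlap were 63.0% and 58.4% with an overlap of 50% of the shorter site, 45.4% and 43.1% when a gap of up to 500 bp counted as shared, and 66.4% and 63.1% in the higher-scoring 50% of each list. They were 57.1% and 57.4% with lists of equal length, 57.2% and 57.6% with equal lengths per chromosome, and 66.2% and 65.4% at 250 to 350 bp. Merging sites under 200 bp apart gave 58.9% and 55.4%, leaving out chromosome 8 gave 59.3% and 55.8%, and leaving out chromosomes 7, 12 and 18 gave 58.3% and 55.1%. The order of the shares thus turned round with equal lengths.

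ESC-richer windows numbered 538 at 50 kb, 80 at 200 kb, 624 in the higher-scoring 50% of each list and 101 without chromosomes 7, 8, 12 and 18 (list totals then taken over the other autosomes), against 189, and EpiSC-richer windows were more in each of these, at 1465, 1254, 1095 and 1330. The correlation of paired scores was 0.34 with an overlap of 50% of the shorter site, 0.26 in the higher-scoring 50% and 0.36 with both sites 250 to 350 bp wide. That of window counts was 0.82 at 50 kb, 0.88 at 200 kb, 0.85 with lists of equal length and 0.83 over windows with a site of either list.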
